A study of Mus musculus with 21 samples.

Results

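Genes of the cell cycle and of DNA replication were followed in epididymal white fat, the visceral depot attached to the epididymis, of male C57BL/6j mice aged 15 to 16 weeks. The genes were 37 symbols looked up in the gene name column of a table of 38087 genes, and each was found once. They were split by function into 23 mitosis genes, which act from the end of S phase through division, and 14 replication genes, which act from the G1/S transition through DNA synthesis. Germ-free mice, raised without microbes, gave 9 libraries, and conventionally raised mice, which carry a gut microbiota, gave 12. All mice ate ad libitum and shared strain, sex and age. Fat was taken every 4 h at zeitgeber times (ZT) 2, 6, 10, 14, 18 and 22 h. Germ-free mice gave 2 libraries at ZT6, ZT10 and ZT22 and 1 at the other 3 times, and conventional mice gave 2 at each of the 6 times. Whether the libraries are separate animals is not in the labels, and the p-values therefore refer to variation among libraries, part of which may be technical.

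A cell that enters the cycle first loads the ring-shaped MCM helicase onto DNA, makes deoxynucleotides, and fires replication once cyclin E and CDK2 have released the E2F transcription factors. In G2 another set of genes is switched on, for the cyclins A and B with CDK1, the Aurora and Polo-like kinases, the kinetochore, the spindle and the contractile ring. Mature fat cells rarely divide, and the cycling cells of a fat depot are mostly progenitors, endothelial cells and immune cells such as macrophages. Many cells hold transcripts of replication genes outside S phase, whereas transcripts of mitosis genes are found mostly in cells in G2 and M.

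Libraries held 24388294 to 48348181 counts, and 20101 genes, among them all 37 members, had enough counts for testing. Members had between 10 counts in a library (Plk1) and 1530 (Pcna), so the rarest mitosis genes rest on few reads. In bulk tissue, fewer cycling cells and less of these transcripts per cell cannot be told apart. Summed adipocyte markers ranged from 14770 to 24432 CPM, counts scaled to a common library size, in germ-free and from 13525 to 21527 CPM in conventional libraries, with none of the 9 markers at 0. Markers of neighbouring tissue were high in some libraries, where high means above 5 times the median of all 21. Summed ciliated duct markers were high in 2 germ-free and 3 conventional libraries and reached 322 CPM in replicate 1 of the germ-free ZT22 pair. Summed epididymis and accessory gland markers were high in both germ-free ZT22 libraries, at 238 CPM in replicate 1 and 448 CPM in replicate 2, and in the conventional ZT10 library, replicate 2, at 1472 CPM. Summed spermatogenic markers were high in 1 germ-free library, at 90.0 CPM, and in 1 conventional library, at 175 CPM. Together these were 9 libraries, 4 germ-free and 5 conventional. The germ-free ones were both libraries at ZT6 and both at ZT22, so in this arm such markers cannot be separated from time of day.

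Mitosis genes were lower in germ-free fat, and most replication genes were not distinguishable between the arms. In germ-free over conventional fat, 15 of the 37 members fell and 0 rose at an adjusted p under 0.05 (edgeR's quasi-likelihood test with Benjamini-Hochberg adjustment over all genes tested). Over all 20101 genes, 22.9% passed, 11.1% as lower and 11.8% as higher in germ-free fat. Of the 23 mitosis members 12 fell, and all 23 had a log2 fold change below 0, with a median of -0.46 and a range of -0.70 to -0.17. Of the 14 replication members 3 fell, namely Mcm6, Rrm2 and Tk1, and 10 had a log2 fold change below 0, with a median of -0.09 and a range of -0.72 to 0.38. Over all genes, 46.8% were below 0 and the median was 0.02. The members share libraries and move together, so these counts are descriptions and not independent tests.

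**Figure D1:**
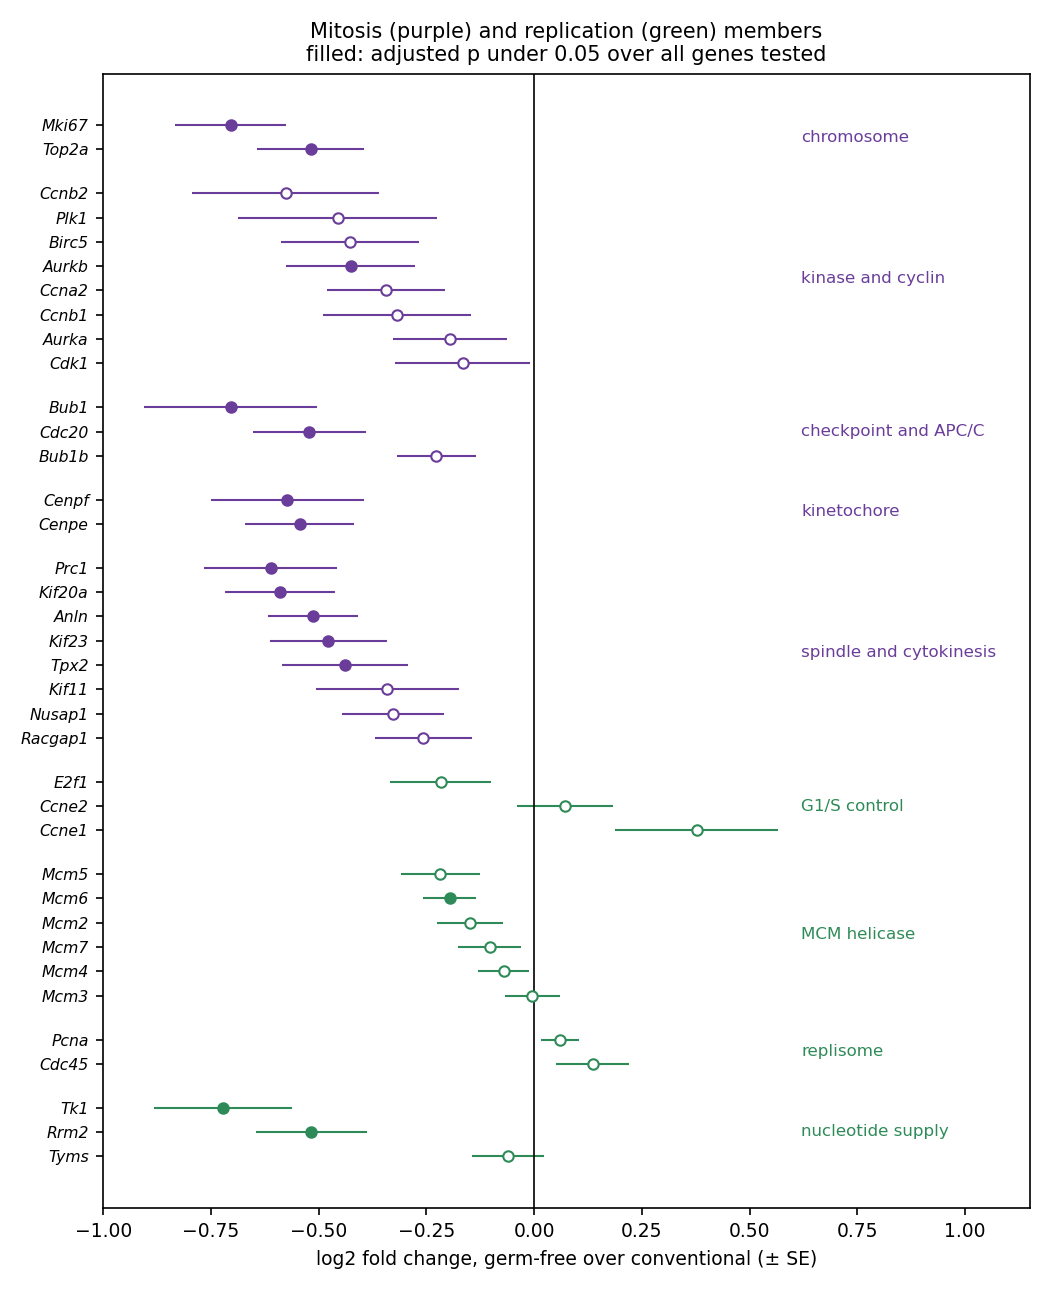
Log2 fold change of each member, germ-free over conventional fat, with bars of 1 standard error, grouped by role, mitosis genes in purple and replication genes in green. Filled points passed an adjusted p of 0.05 over all genes tested. All 23 mitosis genes lie left of 0. Of the 14 replication genes, 10 lie left of 0, among them the filled points of Tk1, Rrm2 and Mcm6.

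No member had arms that did not overlap, against 0.378% of all genes with every germ-free library below every conventional one and 0.194% with every one above. With only the times that had 2 libraries in each arm, ZT6, ZT10 and ZT22, 4 members were called, namely Mki67, Anln, Tk1 and Kif20a. With summed macrophage markers added to the fit, 9 of the 15 kept their call and 6 lost it, namely Bub1, Aurkb, Kif23, Cenpf, Tpx2 and Mcm6, with medians of -0.42 for mitosis and -0.09 for replication members. When the 5 libraries with high ciliated duct values were removed, 12 of the 15 kept their call, Aurkb, Mcm6 and Rrm2 lost it, and E2f1 gained one as lower in germ-free fat. Without the 9 libraries high in any neighbouring tissue list, 6 of the 15 kept their call, namely Mki67, Bub1, Kif20a, Cenpf, Anln and Rrm2, E2f1 gained one, and the medians were -0.57 for mitosis and -0.16 for replication members, with 10.6% of all genes called. These 3 settings were added after seeing the data. In the fit without the 9 libraries, both arms remained only at ZT10, ZT14 and ZT18. The share of all genes called also moves with the setting, from 22.9% in the main fit to 10.6% without the 9 libraries. A call lost there therefore need not be particular to the members. For the macrophage and ciliated duct settings that share is not given here, so calls lost in them cannot be set against all genes.

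The promoters of 8 members are shown so that members with and without the 2 motifs counted below can be read beside their fold changes. Mki67, Top2a, Cdc20 and Cdk1 stand for mitosis, Mcm6 and Mcm5 for the MCM helicase, Rrm2 for a replication gene that fell like the mitosis genes, and Pcna for one that did not fall. The sequences are the 150 bases before the transcript start, 5′ to 3′ on the gene's strand, from RefSeq on build GRCm38.p6. Capitals mark 2 motifs on either strand. The first is the cell cycle genes homology region (CHR), searched as TTTGAA or TTCGAA, which in human and mouse cells binds the MuvB complexes that time mitosis genes. The second is the E2F site, searched as TTTCCCGC, TTTGGCGC, TTTCGCGC or TTTGCCGC, which E2F proteins bind in replication genes.
Mki67, chr7:135716380-135716529, minus strand: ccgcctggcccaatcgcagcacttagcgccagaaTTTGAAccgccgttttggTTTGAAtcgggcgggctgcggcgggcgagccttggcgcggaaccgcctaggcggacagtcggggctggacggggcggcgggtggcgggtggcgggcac
Top2a, chr11:99024190-99024339, minus strand: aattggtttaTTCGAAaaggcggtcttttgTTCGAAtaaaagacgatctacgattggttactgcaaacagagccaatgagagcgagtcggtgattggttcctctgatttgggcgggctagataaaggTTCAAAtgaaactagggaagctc
Cdc20, chr4:118437344-118437493, minus strand: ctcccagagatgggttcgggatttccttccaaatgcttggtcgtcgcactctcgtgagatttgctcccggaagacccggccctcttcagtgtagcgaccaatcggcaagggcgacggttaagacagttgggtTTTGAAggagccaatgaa
Cdk1, chr10:69352913-69353062, minus strand: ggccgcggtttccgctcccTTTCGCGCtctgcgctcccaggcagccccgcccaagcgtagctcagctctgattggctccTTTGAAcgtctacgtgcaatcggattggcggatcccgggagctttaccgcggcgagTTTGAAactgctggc
Mcm6, chr1:128359706-128359855, minus strand: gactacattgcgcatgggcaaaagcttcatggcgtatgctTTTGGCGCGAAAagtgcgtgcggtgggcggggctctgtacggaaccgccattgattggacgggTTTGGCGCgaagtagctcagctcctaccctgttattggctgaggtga
Mcm5, chr8:75109359-75109508, plus strand: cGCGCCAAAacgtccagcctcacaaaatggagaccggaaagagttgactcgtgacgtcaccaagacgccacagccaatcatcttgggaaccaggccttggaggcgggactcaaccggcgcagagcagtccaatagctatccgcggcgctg
Rrm2, chr12:24708104-24708253, plus strand: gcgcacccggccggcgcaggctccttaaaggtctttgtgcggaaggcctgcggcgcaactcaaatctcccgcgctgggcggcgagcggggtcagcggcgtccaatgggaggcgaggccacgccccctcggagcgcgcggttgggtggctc
Pcna, chr2:132253181-132253330, minus strand: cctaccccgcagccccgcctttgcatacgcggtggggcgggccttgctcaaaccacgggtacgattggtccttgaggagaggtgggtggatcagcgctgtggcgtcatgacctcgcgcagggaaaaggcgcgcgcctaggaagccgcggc

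RefSeq promoters of 300 bases, 250 before and 50 after the start, were matched for 31 of the 37 members, 19 mitosis and 12 replication genes. A CHR was found in 15 of 19 mitosis promoters (78.9%) and in 3 of 12 replication promoters (25%), against 21.7% of 27025 genes with a promoter. The mitosis promoters without one were those of Ccnb1, Birc5, Cenpe and Nusap1, which are not shown above, and of these Cenpe was called lower. The promoter ends of Mcm5 and Mcm6, and of Aurka, Kif11 and Kif23, were not found in a GENCODE M21 transcript of the gene, so their starts are less certain. E2F letters were found in 1 of 19 mitosis promoters (5.26%), that of Cdk1, and in 4 of 12 replication promoters (33.3%), against 2.6% of all genes. The CCAAT box, the site of the factor NF-Y, was found in 84.2% of mitosis and 66.7% of replication promoters, against 41.1% of all genes. In the sequences above, Mki67 and Cdk1 carry 2 CHR matches each, Top2a 3 and Cdc20 1, and in Mcm6 2 of 3 E2F matches overlap on opposite strands. Rrm2 and Pcna hold neither motif in the bases shown, although Rrm2 fell in germ-free fat and Pcna did not pass. A match is a description of letters and not a site that was measured here.

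**Figure D2:**
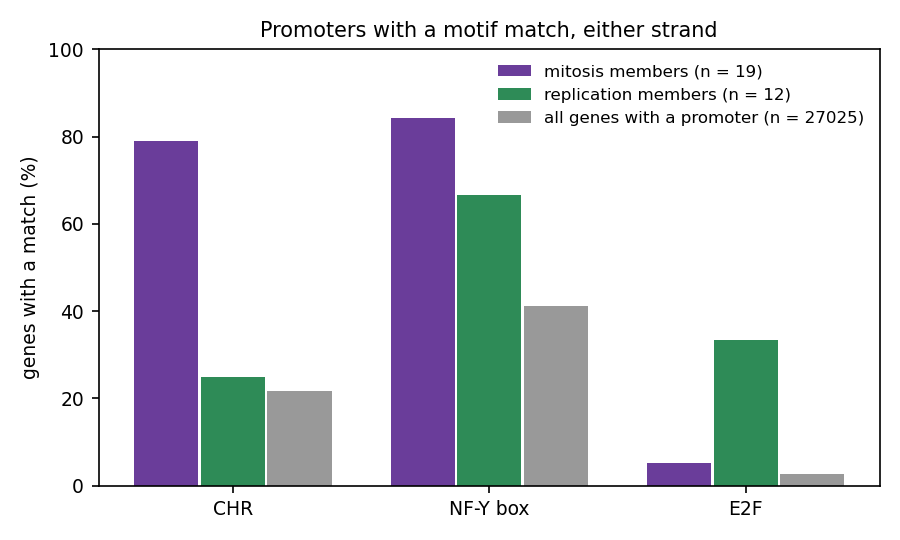
Percent of genes whose 300-base RefSeq promoter holds a CHR, a CCAAT box (labelled NF-Y box) or an E2F match on either strand, for 19 mitosis members, 12 replication members and 27025 genes with a promoter. CHR matches stand at 78.9% of mitosis and 25% of replication promoters, and E2F matches at 5.26% of mitosis and 33.3% of replication promoters.

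Mki67, whose product coats mitotic chromosomes and is the standard marker of cycling cells, had 9.79, 13.99 and 18.1 CPM as its lowest, median and highest germ-free values. In conventional libraries the same values were 16.0, 22.1 and 32.5 CPM. Of the 9 germ-free libraries, 8 lay below the lowest conventional one, and the arms overlapped through replicate 1 of the germ-free ZT22 pair. The mean was 13.6 ± 2.51 CPM in germ-free and 22.3 ± 5.51 CPM in conventional fat (SD, n = 9 and 12). The log2 fold change was -0.70 ± 0.13 (SE, adjusted p = 0.00136 by edgeR's quasi-likelihood test with Benjamini-Hochberg adjustment). Top2a, the topoisomerase that untangles sister chromatids, averaged 8.84 ± 1.55 CPM in germ-free and 13.0 ± 2.85 CPM in conventional fat and fell by 0.52 on the log2 scale (edgeR adjusted p = 0.00710). Both chromosome genes thus fell (100%, against 11.1% of all genes), and they kept their call in each of 21 fits that left out 1 library.

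Of 8 genes of the spindle and of cytokinesis, 5 fell (62.5%, against 11.1% of all genes). They include those that act where the dividing cell is cut apart. Anln encodes anillin, the scaffold of the contractile ring, and is the highest of the mitosis members per length, with 3.34 ± 0.495 RPKM, that is CPM per kilobase of exon, in germ-free and 4.73 ± 0.976 RPKM in conventional fat. Its germ-free libraries ran from 13.8 CPM over a median of 18.1 to 22.9 CPM, and its conventional libraries from 18.4 CPM over a median of 25.9 to 36.3 CPM. All 9 germ-free libraries lay below the conventional median and 6 below the conventional minimum (log2 fold change -0.51 ± 0.10, edgeR adjusted p = 0.00266).

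Kif20a, a kinesin of the central spindle, had 1.44, 2.08 and 2.43 CPM as lowest, median and highest germ-free values. The conventional values were 1.99, 2.98 and 4.14 CPM, and 10 of the 12 conventional libraries lay above the highest germ-free one. It fell by 0.59 ± 0.13 on the log2 scale (edgeR adjusted p = 0.00379). Prc1, which cross-links the central spindle, fell by 0.61 ± 0.16, Kif23, a subunit of centralspindlin, by 0.48 ± 0.14, and Tpx2, which activates Aurora A on the spindle, by 0.44 ± 0.15, passing in 9 of 21 fits that left out 1 library. Racgap1, the other subunit of centralspindlin, had a log2 fold change of -0.26, Nusap1, a microtubule bundler, -0.33 and Kif11, the motor that separates spindle poles, -0.34, and these 3 did not pass. Exons of Kif20a overlap those of Cdc23 on the opposite strand over 1271 bases, and exons of Prc1 those of Rccd1 over 911 bases. Shorter opposite-strand overlaps touch other members, among them Ccne2 (Ints8, 609 bases), Ccna2 (Exosc9, 510 bases), Mcm7 (Ap4m1, 321 bases) and Cdc45 (Ufd1, 209 bases). The strand setting of the read counting is not given in the sources used here, so reads of such pairs may be mixed.

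Both kinetochore genes fell (100%, against 11.1% of all genes). Cenpe, a kinesin motor that brings chromosomes to the spindle equator, averaged 2.98 ± 0.568 CPM in germ-free and 4.31 ± 0.810 CPM in conventional fat, with 7 of 9 germ-free libraries below the conventional minimum (log2 fold change -0.54 ± 0.13, edgeR adjusted p = 0.00588). Cenpf, a large kinetochore protein, fell by 0.57 ± 0.18 (edgeR adjusted p = 0.0287), passed in 15 of 21 fits that left out 1 library, and lost its call with an offset for exon length (adjusted p = 0.0826). Of the 3 genes of the spindle checkpoint and its target, the ubiquitin ligase APC/C, Bub1 and Cdc20 fell (66.7%, against 11.1% of all genes). Bub1b, an inhibitor of the APC/C, did not pass (log2 fold change -0.23).

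Bub1, the checkpoint kinase, is the lowest member per length, with 0.151 ± 0.0497 RPKM in germ-free and 0.252 ± 0.0688 RPKM in conventional fat. Its counts ranged from 14 to 50 per library. Germ-free libraries held 0.372 to 1.07 CPM with a median of 0.587, and conventional libraries 0.708 to 1.68 CPM with a median of 1.05. It fell by 0.70 ± 0.20 on the log2 scale (edgeR adjusted p = 0.0184), and leaving out either the germ-free ZT14 or the germ-free ZT18 library ended the call (adjusted p up to 0.0580). Cdc20, the activator of the APC/C, fell by 0.52 ± 0.13 (edgeR adjusted p = 0.00928).

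Of the 8 kinases, cyclins and kinase partners that start and steer mitosis, 1 passed the threshold (12.5%, against 11.1% of all genes called lower). Aurkb, the kinase of the chromosomal passenger complex, fell by 0.43 ± 0.15 (edgeR adjusted p = 0.0499), but with the replicate number as a block its adjusted p was 0.0659, and it passed in 5 of the 21 fits that left out 1 library. Ccnb2, a partner of CDK1, had a log2 fold change of -0.58 ± 0.22 and an edgeR adjusted p of 0.0647, which became 0.0435 with the block. Birc5, or survivin, of the same complex as Aurkb, had a log2 fold change of -0.43, Plk1 -0.46 and Ccna2 -0.34, and none of these 3 passed.

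Ccnb1, Aurka and Cdk1 had the largest p-values among the mitosis genes. Cdk1, the kinase that drives entry into mitosis, had germ-free values of 1.59, 1.87 and 2.47 CPM as lowest, median and highest. The conventional values were 1.37, 2.04 and 3.26 CPM, so the germ-free libraries lay within the conventional range. Its log2 fold change was -0.17 ± 0.16 (edgeR adjusted p = 0.503). Ccnb1, the main partner of CDK1 at mitotic entry, had 0.535, 1.30 and 1.98 CPM in germ-free and 1.03, 1.55 and 2.07 CPM in conventional fat, with a log2 fold change of -0.32 ± 0.17 (edgeR adjusted p = 0.203). Aurka, the kinase of spindle poles, had 1.09, 1.65 and 2.17 CPM in germ-free and 1.33, 1.86 and 2.39 CPM in conventional fat (log2 fold change -0.20 ± 0.13, edgeR adjusted p = 0.318). In each of these genes the arms overlapped over most of their range.

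Among replication genes, the 2 that fell furthest supply nucleotides, a group of 3 (66.7%, against 11.1% of all genes). Tk1, the cytosolic thymidine kinase that salvages thymidine, had 0.637, 1.31 and 1.59 CPM as lowest, median and highest germ-free values. Conventional libraries held 1.20, 1.80 and 2.92 CPM, and all 9 germ-free libraries lay below the conventional median. It fell by 0.72 ± 0.16 on the log2 scale (edgeR adjusted p = 0.00431), the lowest fold change of the 37 members. Rrm2, the small subunit of ribonucleotide reductase, had 1.38, 1.67 and 2.29 CPM in germ-free and 1.87, 2.56 and 3.28 CPM in conventional fat, with 6 germ-free libraries below the conventional minimum. It fell by 0.52 ± 0.13 (edgeR adjusted p = 0.00921). Tyms, thymidylate synthase, the third gene of this group, had 4.35, 5.85 and 6.64 CPM in germ-free and 4.97, 6.06 and 7.31 CPM in conventional fat (log2 fold change -0.06 ± 0.08, edgeR adjusted p = 0.686). Both Tk1 and Rrm2 kept their calls in each of 21 fits that left out 1 library.

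The 6 subunits of the MCM2-7 helicase are assembled as a ring of 1 copy each. Their log2 fold changes spanned a narrow range from -0.22 to -0.0041, and 1 of the 6 fell (16.7%, against 11.1% of all genes). Mcm6 had 13.3, 15.9 and 17.6 CPM in germ-free and 15.1, 17.8 and 21.3 CPM in conventional fat, with all 9 germ-free libraries below the conventional median. Its fall of 0.20 ± 0.06 was the smallest of the 15 called (edgeR adjusted p = 0.0301), and it passed in 12 of 21 fits that left out 1 library. Mcm3 had 9.95, 11.2 and 12.6 CPM in germ-free and 9.06, 11.2 and 14.1 CPM in conventional fat, and its log2 fold change of -0.0041 ± 0.064 (edgeR adjusted p = 0.979) was above 0 under several other settings. Mcm5, with a log2 fold change of -0.22 ± 0.09, Mcm2 with -0.15 ± 0.08, Mcm7 with -0.10 ± 0.07 and Mcm4 with -0.07 ± 0.06 did not pass.

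The replisome genes lay on the other side of 0. Pcna, the sliding clamp of DNA polymerases, is the highest member per length, with 14.6 ± 1.32 RPKM in germ-free and 14.1 ± 0.624 RPKM in conventional fat. Germ-free libraries held 30.5 to 40.4 CPM with a median of 35.0, and conventional libraries 31.3 to 37.2 CPM with a median of 34.1 (log2 fold change 0.06 ± 0.04, edgeR adjusted p = 0.363). The conventional libraries lay within the range of the germ-free ones. Cdc45, part of the active replicative helicase, had a log2 fold change of 0.14 ± 0.08 and did not pass. A pseudogene copy of Pcna also has reads in the table, so its level is uncertain to that extent.

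None of the 3 regulators of the G1/S transition passed between the arms. E2f1 had a log2 fold change of -0.22 ± 0.12. Ccne2, cyclin E2, had 2.56, 5.12 and 8.44 CPM in germ-free and 3.47, 4.995 and 5.77 CPM in conventional fat, with a log2 fold change of 0.07 ± 0.11 (edgeR adjusted p = 0.728). Ccne1, cyclin E1, had 2.03, 2.47 and 7.58 CPM in germ-free and 1.07, 2.61 and 4.08 CPM in conventional fat. Its log2 fold change of 0.38 ± 0.19 was the highest of the members and did not pass (edgeR adjusted p = 0.168).

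**Figure D3:**
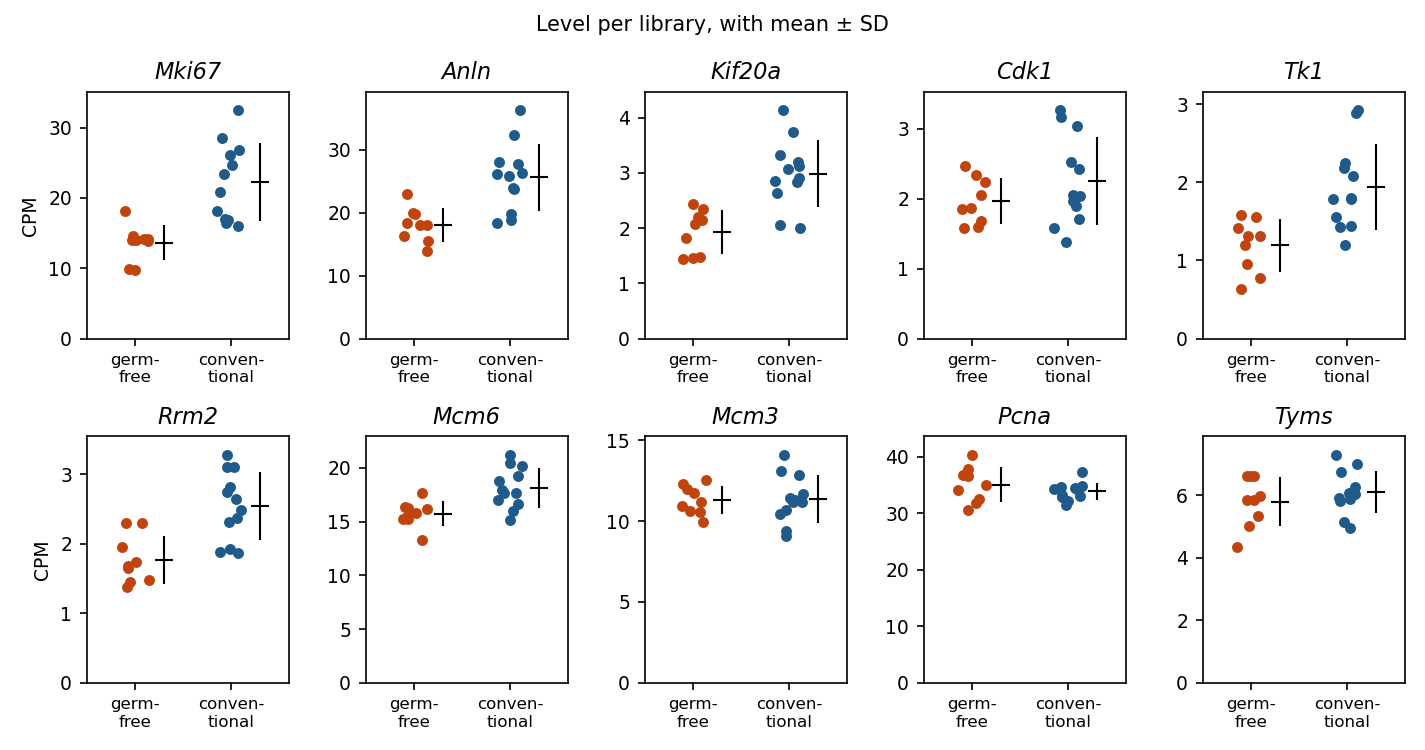
Level in CPM of 10 members in each of the 9 germ-free (left, orange) and 12 conventional (right, blue) libraries, with the mean and SD beside the points. Mki67, Anln, Kif20a, Tk1, Rrm2 and Mcm6 have all germ-free libraries below the conventional median, although the ranges of the arms overlap. In Cdk1, Mcm3, Pcna and Tyms some germ-free libraries lie above that median.

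To set the classes side by side in each library, the log2 CPM of each member was expressed as its deviation from that gene's mean over the 21 libraries and averaged over a class. The mitosis average was -0.46, -0.27 and 0.11 as lowest, median and highest in germ-free and -0.24, 0.14 and 0.66 in conventional fat. All 9 germ-free libraries lay below the conventional median and 6 below the conventional minimum. The replication average was -0.18, -0.07 and 0.13 in germ-free and -0.14, 0.03 and 0.30 in conventional fat, with 8 of 9 germ-free libraries below the conventional median and 2 below the minimum. The replication average minus the mitosis average was -0.18, 0.26 and 0.32 in germ-free and -0.56, -0.11 and 0.13 in conventional fat, and 6 germ-free libraries exceeded the highest conventional one.

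Within conventional fat the library at ZT22, replicate 2, had the highest mitosis average and the one at ZT14, replicate 2, the next, and in both all 23 mitosis genes were above their own mean over the 21 libraries. In germ-free fat the library at ZT22, replicate 1, was the highest and its partner at ZT22, replicate 2, the lowest, and these are the 2 germ-free libraries high in epididymis markers. Within the replication class, members differed in how far they followed the mitosis genes over the 21 libraries. Pearson's r with the mean of the mitosis members was 0.80 for Tk1, 0.80 for Rrm2, 0.74 for Mcm5 and 0.73 for Mcm6, against -0.10 for Pcna, -0.22 for Cdc45 and -0.29 for Ccne1. The lowest r among the mitosis members with the other mitosis members was 0.44 for Aurka, and the highest was 0.94 for Top2a. These coefficients share depth and the contrast of arms and are descriptions.

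At each of the 6 times, every germ-free library had a lower mitosis average than both conventional libraries of that time. For the replication average this held at ZT2, ZT14, ZT18 and ZT22, and not at ZT6 or ZT10. At ZT2, with 1 germ-free library, 22 of 23 mitosis genes were lower in germ-free fat, with a median log2 difference of -0.34. At ZT6, 19 were lower and the median was -0.11, the smallest of the day. At ZT10, 23 were lower with a median of -0.37. These first 3 times spanned medians from -0.37 to -0.11, and the later 3 were lower, but ZT14 and ZT18 rest on 1 germ-free library each and the change over the day was not significant in any mitosis gene. The median was -0.56 at ZT14 with 23 lower, -0.50 at ZT18 with 22 lower, and -0.57 at ZT22 with 23 lower. All germ-free libraries at ZT6 and ZT22 were high in a list of neighbouring tissue markers, and the part of this in the medians was not tested. Among all genes, between 46% and 51.5% were lower in germ-free fat at a given time. Of the 14 replication genes, 8, 9, 10, 10, 6 and 11 were lower at ZT2, ZT6, ZT10, ZT14, ZT18 and ZT22, with median differences of -0.13, -0.05, -0.15, -0.33, 0.04 and -0.15 in the same order.

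**Figure D4:**
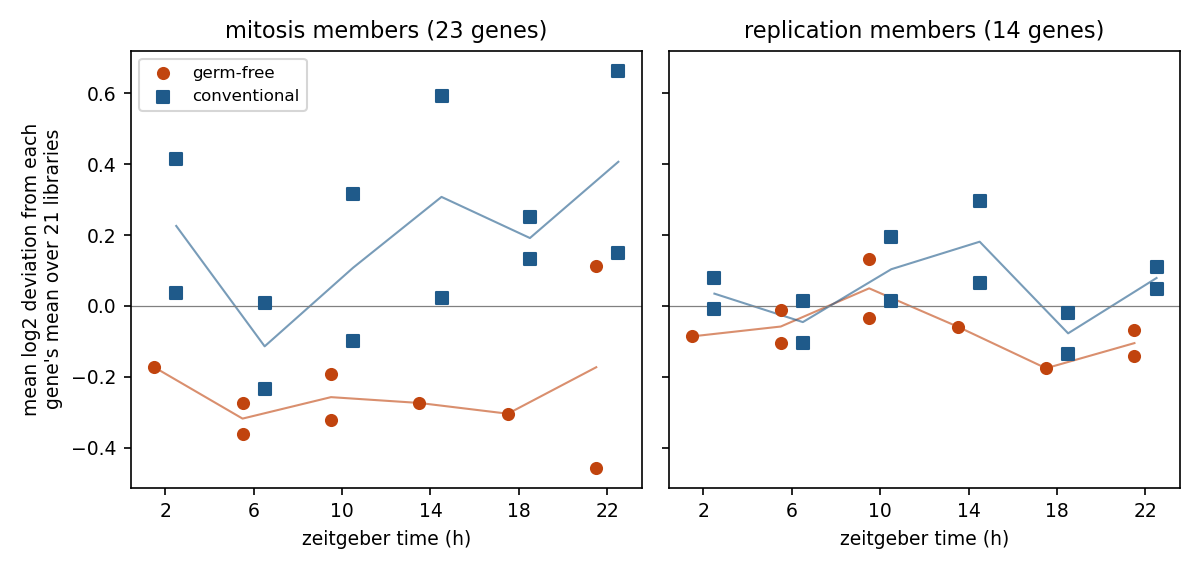
Average log2 deviation of the 23 mitosis genes (left) and of the 14 replication genes (right) in each library against zeitgeber time in hours, germ-free as orange circles and conventional as blue squares, with lines through the means of each time. In the mitosis panel each germ-free library lies below both conventional libraries of its time. In the replication panel, on the same axis, this holds at ZT2, ZT14, ZT18 and ZT22, and the arms mix at ZT6 and ZT10.

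A daily rhythm was tested with cosine and sine terms of 24 h fitted in each arm. In germ-free fat 1 of 37 members was rhythmic at an adjusted p under 0.05, against 4.22% of all genes, and in conventional fat 0 were, against 0.821% (edgeR's quasi-likelihood test with Benjamini-Hochberg adjustment). At an unadjusted p under 0.05 there were 4 in germ-free and 3 in conventional fat, against 21.2% and 13.3% of all genes. The rhythm differed between the arms in 0 members, and in 0% of all genes, and 1 member had an unadjusted p under 0.05 for the difference, against 7.46% of all genes.

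Ccne1 was the rhythmic member in germ-free fat, with an amplitude of 0.81 on the log2 scale and a fitted peak at 8.50 h (edgeR adjusted p = 0.0308). Its 2 germ-free libraries at ZT6 held 5.22 and 4.78 CPM and those at ZT10 held 7.58 and 5.91 CPM, and every other germ-free library held between 2.03 and 2.47 CPM. Both libraries at ZT6 are among those high in neighbouring tissue markers. In conventional fat the amplitude was 0.31, with a peak at 9.97 h and an adjusted p of 0.579. The difference of the rhythms had an unadjusted p of 0.122 and an adjusted p of 0.677, so the rhythms were not shown to differ. The 4 libraries that carry the germ-free peak are both replicates of 2 neighbouring times, and the call was lost in 6 of the 21 fits that left out 1 library, those without germ-free ZT6 replicate 1, either library of ZT10 or ZT22, or the ZT18 library.

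E2f1 was the member closest to the threshold in conventional fat, with an amplitude of 0.41, a peak at 15.1 h and an edgeR adjusted p of 0.130. DESeq2's likelihood ratio test called it, as did edgeR without the germ-free ZT2 library. Conventional libraries held 3.79 to 4.98 CPM at ZT2, ZT6 and ZT22 and 6.33 to 7.73 CPM at ZT14 and ZT18. In germ-free fat its amplitude was 0.17, and the unadjusted p of the difference was 0.0250 (adjusted p = 0.646). None of the 23 mitosis genes was rhythmic in either arm, with a lowest adjusted p of 0.240 in germ-free and 0.347 in conventional fat. The fitted peaks of 21 of the 23 mitosis genes in conventional fat fell between 15 and 23 h, and of 10 in germ-free fat, which describes curves that did not pass a test and that share their libraries.

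**Figure D5:**
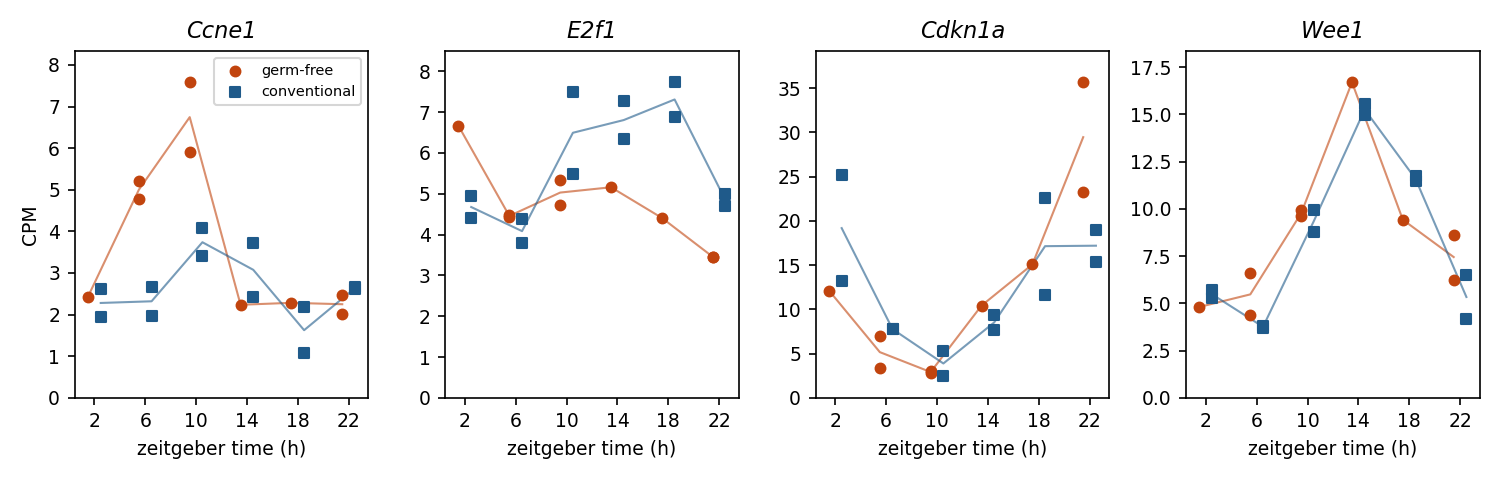
CPM of Ccne1 and E2f1, which act at the G1/S transition, and of the brakes Cdkn1a and Wee1 in each library against zeitgeber time in hours, germ-free as orange circles and conventional as blue squares, with lines through the means. Ccne1 is high in the 4 germ-free libraries at ZT6 and ZT10, and Wee1 is high around ZT14 in both arms.

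The other genes of the same pathways were read from lists chosen with earlier results of these data known. The median log2 fold change of 59 other mitosis genes tested was -0.26. Of these, 14 fell (23.7%, against 11.1% of all genes) and 1 rose (against 11.8% of all genes). Those with the smallest p were Hmmr, a microtubule-binding protein of the spindle (-0.87 ± 0.18), Aspm, which focuses spindle poles (-0.81 ± 0.17), and Cit, the citron kinase of the midbody (-0.65 ± 0.14). Hmmr averaged 0.754 ± 0.194 CPM in germ-free and 1.44 ± 0.465 CPM in conventional fat, and Aspm 2.45 ± 0.490 CPM in germ-free and 4.29 ± 1.28 CPM in conventional fat. The gene that rose was Pttg1, or securin, by 0.14 ± 0.05.

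The median log2 fold change of 42 other replication genes was 0.01. Of these, 1 fell (2.38%, against 11.1% of all genes) and 3 rose (against 11.8% of all genes). Ticrr, which helps replication origins to fire, fell by 0.84 ± 0.20 from low levels, at 0.365 ± 0.138 CPM in germ-free and 0.608 ± 0.154 CPM in conventional fat. Dbf4, the activator of the origin kinase CDC7, rose by 0.70 ± 0.14, at 7.24 ± 1.84 CPM in germ-free and 4.42 ± 0.753 CPM in conventional fat. Pola2, a subunit of the primase polymerase, rose by 0.29 ± 0.06 and Gins4, of the replicative helicase, by 0.15 ± 0.05.

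Of 25 G1 cyclins, kinases and transcription factors, 0 fell and 2 rose, against 11.1% and 11.8% of all genes. The 2 were Tfdp1, a partner of E2F proteins, by 0.23 ± 0.04 and Ccnd3, cyclin D3, by 0.24 ± 0.04. Foxm1, the factor that drives mitosis genes in G2, had a log2 fold change of -0.39 ± 0.14 with an edgeR adjusted p of 0.0566, and Mybl2, its partner with MuvB, -0.30 with an adjusted p of 0.205. Ccnd1, cyclin D1, had a log2 fold change of 0.32 with an edgeR adjusted p of 0.240. Of 22 inhibitors and brakes, 1 fell (4.55%), Trp53 by 0.17 ± 0.06, and 1 rose, Tob1 by 0.47 ± 0.08.

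In germ-free fat 4 of the 25 G1 genes and 1 of the 59 other mitosis genes were rhythmic, against 4.22% of all genes. In conventional fat 0 of either list were, against 0.821%. The mitosis gene was Cdc25b, with a germ-free amplitude of 0.79 (edgeR adjusted p = 0.000283), and its rhythm was not shown to differ between the arms (adjusted p = 0.636). Of the 22 brakes, 5 were rhythmic in germ-free and 2 in conventional fat. Wee1 and Cdkn1a were rhythmic in both arms. Wee1, the kinase that holds CDK1 inactive and a known target of the clock, was rhythmic in germ-free fat with an amplitude of 0.81 and a peak at 14.8 h and in conventional fat with 0.90 and 15.0 h (edgeR adjusted p = 0.0151 and 0.00364). Cdkn1a, the CDK inhibitor p21, was rhythmic in germ-free fat with an amplitude of 1.53 and a peak at 21.04 h and in conventional fat with 1.101 and 22.0 h (edgeR adjusted p = 0.00145 and 0.0332). Neither differed between the arms, with an unadjusted p of 0.892 for Wee1 and 0.201 for Cdkn1a.

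Outside the lists, the 8 genes whose log2 CPM over the 21 libraries was most like the mean of the mitosis members had Pearson's r of 0.77 to 0.89 among 19804 genes compared. The closest was Hist1h1a, a linker histone made in S phase (r = 0.89), which did not pass between the arms (edgeR adjusted p = 0.0835). It was followed by C330027C09Rik (r = 0.83), Brca1 (r = 0.79), Gpr124 and Arhgap44 (r = 0.78 each), and Btaf1 and Kntc1 (r = 0.77 each). Col1a2, a chain of type I collagen, was also among them (r = 0.77), at 410.2 ± 62.5 CPM in germ-free and 729 ± 64.9 CPM in conventional fat. It was itself lower in germ-free fat (log2 fold change -0.83 ± 0.08, edgeR adjusted p = 3.71e-05). These coefficients share the contrast of arms and are descriptions.

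Markers of the cells that could be cycling were read beside these results, against the 11.1% of all genes called lower and 11.8% called higher in germ-free fat. Summed markers of progenitors and fibroblasts ranged from 3582 over a median of 4159 to 5602 CPM in germ-free and from 4104 over 5562 to 6129 CPM in conventional fat, and 4 of 11 fell (36.4%). Summed macrophage markers ranged from 1095 over 1208 to 1926 CPM in germ-free and from 1178 over 1461 to 1733 CPM in conventional fat, and 3 of 12 fell (25%). B cell markers ranged from 90.0 over 164 to 750 CPM in germ-free and from 189 over 246 to 712 CPM in conventional fat, with 0 of 7 called. Of 10 endothelial markers, 6 rose and 1 fell. Of 11 T and NK cell markers, 2 rose and 0 fell, and their sum had a median of 14.4 CPM in germ-free and 12.0 CPM in conventional fat. No marker of these lists was at 0 in all libraries. The part of these cell types in the fall of the mitosis genes was not tested. Mitosis genes are also longer, with a median exon length of 4275 bases against 3262 for replication genes, and the deviations of all genes correlated differently with exon length in the arms, with a median rho of -0.07 in germ-free and 0.10 in conventional libraries. With an offset for exon length, 14 members were called and the class medians were -0.43 for mitosis and -0.07 for replication genes.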

How the data were processed

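Per the labels' protocols, total RNA was depleted of ribosomal RNA and made into stranded, paired-end libraries. The submitters' processing notes list STAR 2.4.0i and mm10. Raw counts per gene over exons, with an exon length, came in 1 deposited table and were used unchanged. How reads were counted, on which strand and against which annotation, is not given in the sources used here. Sequencing reads carry no molecular identifiers, so precision covers counting and the spread between libraries only.

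The tool was edgeR 4.0.16 in R 4.3.3 (filterByExpr, TMM scaling, quasi-likelihood F test), with all 21 libraries fitted at once by arm and a time factor of 6 levels. Rhythm terms of 24 h, cosine and sine, were fitted per arm on the same 20101 genes. P-values were adjusted by Benjamini-Hochberg over these genes, with a threshold of 0.05. Fold changes are germ-free over conventional on the log2 scale. CPM are TMM-scaled, RPKM divide them by exon length, and class averages used a prior count of 2. Positions and exon overlaps came from GENCODE M21, and promoters from RefSeq. The scripts were tested on simulated data.

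The members and lists were chosen with earlier results of these data known. Named with full values were, per class, the 3 members with the smallest and the 3 with the largest p, the highest and lowest per length, and any rhythmic member. From other lists came up to 3 genes per direction with the smallest p, and Wee1, Cdkn1a, Ccnd1, Foxm1 and Mybl2. Other values are given for members to complete a role.

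Replicates of a group differed by more than counting noise. Germ-free and conventional libraries share replicate numbers in their titles at ZT6, ZT10 and ZT22, and same-numbered libraries deviated together there (r = 0.54, 0.18 and 0.12 over 20101 genes), so the number was treated as a possible pairing and fitted as a block. Alternatives were DESeq2 1.42.0, other size factors, filters, time terms, subsets of libraries, an exon length offset and marker covariates.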

Additional observations from a re-analysis of the deposited data

Results flagged for a closer look

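In germ-free fat the library at ZT22, replicate 1, stood above the other 8 in 5 mitosis genes and in the class average, by a gap test for 1 extreme value. Chance flags about 1 in 20 groups, and the 5 genes share that library, so the flags are not independent. Plk1 had 1.04 CPM there against 0.721 CPM in the next highest germ-free library, and Cdc20 had 1.91 against 1.31 CPM. Kif11 had 5.54 against 3.58 CPM, Cenpf 4.86 against 3.25 CPM, and Prc1 3.78 against 2.75 CPM. The mitosis average was 0.11 in that library and -0.17 in the next. The same library had the highest summed ciliated duct markers, at 322 CPM against a median of 15.3 CPM over all libraries, and the part of this in the mitosis genes was not tested. Without it, 15 members were called.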

How the results depend on the processing

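Under DESeq2, other size factors, both filters, the other time term, the exon length offset and the ciliated duct covariate, 12 to 18 members were called, and the class medians stayed from -0.46 to -0.42 for mitosis and from -0.10 to -0.07 for replication genes. No share of all genes called is given for the settings of this paragraph, so its counts describe the members only. With the replicate block 15 members were called, with medians of -0.46 and -0.08, and beside Aurkb and Ccnb2 it changed no other call. Leaving out 1 library at a time gave 10 to 17 called, mitosis medians from -0.52 to -0.40 and replication medians from -0.10 to -0.08. In these fits Aurkb passed without the conventional libraries at ZT10, replicate 2, and ZT22, replicate 1, and the germ-free ones at ZT6, ZT10 and ZT22, replicate 1, and in no other (adjusted p up to 0.103). Mcm6, Tpx2 and Cenpf lost their calls in 9, 12 and 6 fits (adjusted p up to 0.0718, 0.0965 and 0.0842), each of them without the conventional libraries at ZT10, replicate 1, ZT2, replicate 2, or ZT22, replicate 2, and without the germ-free ones at ZT10, replicate 1, or ZT14.

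The call count was 4 at ZT6, ZT10 and ZT22 alone, which have 2 libraries per arm, where 11 had an unadjusted p under 0.05, 9 with the macrophage covariate, 12 without the 3 libraries high in epididymis markers, and 7 without the 9 high in any neighbouring tissue list, with mitosis medians of -0.37, -0.42, -0.49 and -0.57. The fit of the libraries numbered 2 only, 6 in each arm, took time as cosine and sine terms and not as a factor. There 11 were called, 10 of them among the 15, and the mitosis median was -0.66. With the libraries numbered 1 only at ZT6, ZT10 and ZT22, 3 in each arm, 0 were called, 2 had an unadjusted p under 0.05 and the mitosis median was -0.19. These subsets hold fewer libraries, and over all genes 7.84% were called at the 3 times, 7.41% with the libraries numbered 2 and 0% with those numbered 1. Rhythmic members numbered 0 to 1 in either arm when 1 library was left out, and DESeq2 called 1 in conventional fat, E2f1, which edgeR also called without the germ-free library at ZT2. Some members changed sign, none of them called. With the libraries numbered 1, Plk1 was 0.26, Kif11 0.09, Aurka 0.14 and Mcm2 0.0018, against -0.46, -0.34, -0.20 and -0.15 with all libraries. Mcm7 was above 0 without the libraries high in epididymis markers and without those high in any list. Mcm3 was 0.0012 with DESeq2, 0.00056 with other size factors, 0.0055 with no filter, 0.0029 with the libraries numbered 1, 0.040 with the macrophage covariate and from -0.044 to 0.058 without 1 library. Tyms was 0.0046 at ZT6, ZT10 and ZT22 alone, 0.13 with the libraries numbered 1, 0.0078 with the length offset and 0.014 with offset and block. Pcna was -0.0085 at the 3 times and Ccne2 -0.024 with the libraries numbered 2 and from -0.025 to 0.148 without 1 library. The cause was not tested. Depth limits Bub1, Plk1 and Birc5, which had at most 51 counts in a library.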
